A study of Mus musculus with 41 samples.

Results

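The genes described here are 38 germline genes listed together as silenced by DNA methylation in mouse somatic cells, a state not measured here. They were taken by symbol from a table of raw read counts for 19434 genes, without an expression filter, and all 38 had a row. Most of them were close to silent in these T cells, but Tdrkh and Spo11 averaged 8.19 and 5.74 CPM (counts per 1000000 reads), above the median gene at 2.65 CPM. The 38 genes held 2149 of 104515063 reads over 41 libraries, 3 of them had no read in any library, and 25 had fewer than 10. No member passed the test for a difference by genotype in any sorted population. Of all genes, 0.0066% to 3.58% passed it, depending on the population.

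The libraries came from CD4 T cells sorted from mice with floxed Uhrf1 and from control mice with intact Uhrf1. Both carried a Cre driven by Foxp3, the gene that defines regulatory T (Treg) cells. In the chimera experiment, Treg cells high for CD25 and positive for Foxp3-YFP were taken from 8-week-old females. The chimeric knockouts were Uhrf1fl/fl Foxp3+/YFP-Cre (n = 4) and their controls Uhrf1+/+ Foxp3YFP-Cre/YFP-Cre (n = 4). The knockouts therefore carried Cre on 1 X chromosome and the controls on both, and both groups expressed Cre in the sorted cells. In the pulse-chase experiment, mice called iUhrf1fl/fl carried Uhrf1fl/fl with the tamoxifen-dependent Foxp3GFP-CreERT2 and the Cre reporter Rosa26SorCAG-tdTomato, and the control mice iUhrf1+/+ carried the same CreERT2 and reporter with intact Uhrf1. All of them, 8 weeks old by the labels, were given 2 weeks of tamoxifen chow followed by 4 weeks of standard chow. Sorted from each genotype were labeled Treg cells (positive for both GFP and tdTomato), ex-Foxp3 cells (positive for tdTomato and negative for GFP, so Foxp3 had been lost after Cre had acted) and post-tamoxifen Treg cells (GFP positive and tdTomato negative, in which the reporter had not recombined). Each population had 6 libraries from fl/fl mice and 5 from controls. The labels call the libraries biological replicates.

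Germline genes with CpG-rich promoters are methylated in the early mouse embryo, and somatic cells keep them off by copying that methylation at each division. UHRF1 binds newly replicated, half-methylated CpG sites and brings in DNMT1, the methyltransferase that restores the missing strand. The marks are first placed at these promoters by DNMT3B, guided in part by a repressive complex that holds E2F6, PCGF6, MGA and L3MBTL2, and in mice lacking DNA methyltransferases genes such as Dazl, Mael and Sycp3 are among those that come on. Their products serve the piRNA pathway, which silences transposons in germ cells, and meiosis, sperm formation and pluripotency.

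The promoters of 4 members are shown because they span the range found here. Ddx4 encodes the germ-cell RNA helicase VASA and Dazl an RNA-binding protein of germ cells, and both were almost or entirely unread. Piwil1, a PIWI protein that carries piRNAs in spermatids, was the member whose reads lay in most chimeric knockouts and no control. Tdrkh, a Tudor domain protein that helps trim piRNAs, was the most read member. Each sequence is the 250 bases before the start site on the gene's strand, from RefSeq on GRCm38.p6, 5′ to 3′, with every CG in capitals.
Ddx4, chr13:112652311-112652560, minus strand: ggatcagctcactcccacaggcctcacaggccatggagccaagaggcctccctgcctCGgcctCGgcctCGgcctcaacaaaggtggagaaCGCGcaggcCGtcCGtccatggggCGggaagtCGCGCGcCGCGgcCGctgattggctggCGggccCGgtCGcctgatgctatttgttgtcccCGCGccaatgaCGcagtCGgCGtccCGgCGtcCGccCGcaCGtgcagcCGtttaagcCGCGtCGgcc
Dazl, chr17:50293621-50293870, minus strand: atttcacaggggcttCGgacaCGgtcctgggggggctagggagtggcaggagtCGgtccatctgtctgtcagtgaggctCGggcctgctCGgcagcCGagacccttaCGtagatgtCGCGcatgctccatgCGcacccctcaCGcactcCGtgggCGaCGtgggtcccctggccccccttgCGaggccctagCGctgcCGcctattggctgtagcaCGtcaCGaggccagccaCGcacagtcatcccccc
Piwil1, chr5:128735996-128736245, plus strand: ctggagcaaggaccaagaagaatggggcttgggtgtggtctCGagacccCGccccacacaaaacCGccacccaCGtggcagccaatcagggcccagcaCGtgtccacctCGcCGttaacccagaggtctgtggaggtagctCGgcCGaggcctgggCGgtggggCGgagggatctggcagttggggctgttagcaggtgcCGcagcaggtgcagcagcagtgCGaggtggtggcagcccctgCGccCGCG
Tdrkh, chr3:94412994-94413243, plus strand: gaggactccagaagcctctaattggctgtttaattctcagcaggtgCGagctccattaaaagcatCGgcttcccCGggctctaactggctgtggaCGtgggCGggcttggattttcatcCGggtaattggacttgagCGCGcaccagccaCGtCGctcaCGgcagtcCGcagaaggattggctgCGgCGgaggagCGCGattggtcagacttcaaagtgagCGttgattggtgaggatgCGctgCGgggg

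Ddx4 holds 31 CG in these 250 bases, Dazl 20, Piwil1 16 and Tdrkh 19. Piwil1 has 2 copies of CACGTG, the E-box bound by MAX with its partners, and Ddx4 has 1. Ddx4 also holds 1 copy of TCCCGC, the core bound by E2F proteins, on either strand, and neither motif lies in the Dazl or Tdrkh sequence. Over windows of 300 bases (250 before to 50 after the start), 31 members matched a RefSeq entry, and the observed over expected CpG ratio was above 0.6 in 19 of them (61.3%), against 36.4% of 27025 genes in the same table. CACGTG was found in 14 members (45.2%), against 7.24% of all genes. TCCCGC was found in 10 members (32.3%), against 20.0% of all genes, and both motifs in 6 members (19.4%), against 2.05%. CACGTG reads the same on both strands, TCCCGC was searched on both, and the 2 motifs share no overlap. A match describes the letters of the window only.

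**Figure D1:**
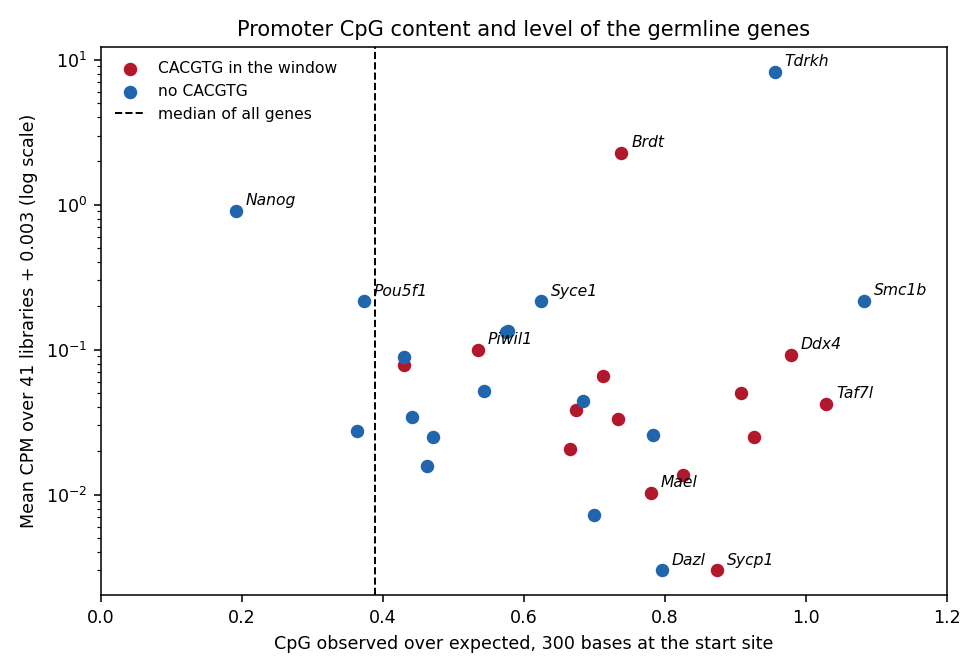
Observed over expected CpG ratio of the 300 bases at the start site (horizontal axis) against mean level in CPM (counts per 1000000 reads) plus 0.003, over 41 libraries (vertical log axis), 1 point per member with a RefSeq promoter, red with and blue without CACGTG. Most points lie to the right of the median of all genes (dashed line, 0.389), and Tdrkh and Dazl share a high CpG content while lying at opposite ends of the level axis.

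The CpG content of the promoter varied among well-read and rarely read members alike. Among the 10 matched members with 10 or more reads over the 41 libraries the median CpG ratio was 0.576, and among the 21 with fewer reads it was 0.713. Tdrkh (0.956) and Brdt (0.738) lay above 0.6 and Nanog (0.192) and Pou5f1 (0.374) far below it. CACGTG lay in 2 of those 10 and in 12 of those 21. The 7 members without an entry were Dppa2, Dppa3, Dppa4, Piwil2, Spo11, Tex11 and Tex13.

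Library totals ran from 2403189 to 4594977 reads in chimeric knockouts and from 3141687 to 5709702 in chimera controls, and from 781437 to 3435802 in the 33 pulse-chase libraries. Levels are given as CPM, counts per 1000000 counted reads of the library, and 1 read was worth 0.175 CPM in the deepest library and 1.28 CPM in the shallowest. Uhrf1, the targeted gene, had 11.9, 8.49, 9.15 and 22.4 CPM in chimeric knockouts, against 32.6, 22.2, 23.6 and 22.5 CPM in chimera controls. The log2 fold change was -0.94 ± 0.23 (SE, edgeR quasi-likelihood test, adjusted p = 0.00252), and the library labelled chimeric knockout 4 held Uhrf1 at the level of the controls. That call was lost with DESeq2 (adjusted p = 0.0729), without control 1 (adjusted p = 0.0824) and without knockout 2 (adjusted p = 0.0751). In labeled cells Uhrf1 ranged from 10.4 to 88.9 CPM in fl/fl mice and from 11.3 to 101 CPM in controls. The log2 fold change was -0.16 ± 0.60 (edgeR, adjusted p = 1). Labeled libraries numbered 1 to 3 had 60.4 to 101 CPM over both genotypes, and those with higher numbers 10.4 to 19.19 CPM. Post-tamoxifen fl/fl libraries 1 to 3 had 126 to 158 CPM, above every post-tamoxifen control (13.6 to 60.1 CPM). Post-tamoxifen fl/fl libraries 4 to 6 had 18.6 to 32.4 CPM. The cause of these splits by number was not tested. Uhrf1 passed in no pulse-chase genotype comparison. Counts over the whole gene cannot tell transcripts of a deleted allele from intact ones. Foxp3 lay at 13.4 to 148 CPM in the ex-Foxp3 libraries and at 120 to 770 CPM in the others. Post-tamoxifen control 2 (120 CPM) and fl/fl 3 (129 CPM) lay inside the ex-Foxp3 range, although sorted as GFP positive. The other post-tamoxifen libraries had 290 to 535 CPM. No member was called between post-tamoxifen genotypes without control 2 or without fl/fl 3, where 765 and 332 of all genes were. Markers of other cells also varied. Summed B cell and plasma cell markers (6 of 8 listed genes in the table) were 27.9 to 51.4 CPM in chimeric knockouts and 42.6 to 254 CPM in chimera controls, and 72.3 to 1044 CPM in fl/fl and 25.1 to 379 CPM in control post-tamoxifen cells. The highest in the chimera were controls 3 and 4, at 211 and 254 CPM. Libraries also differed in reads of 4 Y-linked genes. Their sum was 430 CPM in chimera control 1, although the chimera mice are labelled female, and at most 1.52 CPM in the other 7 chimera libraries. It was 318 to 455 CPM in control numbers 2 and 3 of each pulse-chase population and at most 2.33 CPM in the other pulse-chase libraries, all fl/fl libraries included. Without chimera control 1, without chimera controls 3 and 4, and without pulse-chase control numbers 2 and 3, no member was called in any comparison, as with all libraries. Of all genes, 300 and 279 were called in the 2 chimera fits. In the pulse-chase fit 1 (labeled), 3 (ex-Foxp3) and 369 (post-tamoxifen) were called between genotypes. Between ex-Foxp3 and labeled cells 320 were called in fl/fl mice and 5 in controls, and 0 and 4 for differences between genotype effects. Where few genes of any kind were called, the lack of a member says little. Germ cell markers such as Dazl, Prm1 and Zp3 summed to at most 3.84 CPM in any library.

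Most of the signal came from a few genes. Tdrkh held 41.6% of all member reads, and with Spo11, the enzyme that cuts DNA to start meiotic recombination, and Brdt, a bromodomain protein of spermatids, it held 1727 reads (80.4%). The 8 most abundant members by mean CPM, which add Nanog, Piwil2, Tex13, Smc1b and Pou5f1, held 92.2%. The other 30 shared 167 reads, with at most 8 from 1 gene in 1 library. Dazl, Sycp1 (the transverse filament of the synaptonemal complex) and Dppa3 (an oocyte and early embryo factor) had no read in 41 libraries, which allows up to 0.0287 CPM over their pooled reads, counting error only. In all, 25 of 38 members (65.8%) had fewer than 10 reads, against 34.2% of all genes, and the median mean level was 0.0429 CPM, against 2.65 CPM over all genes. Per kilobase of exon, Spo11 was highest at 1.46 CPM per kb, followed by Tdrkh (1.33), Brdt (0.445) and Nanog (0.401).

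**Figure D2:**
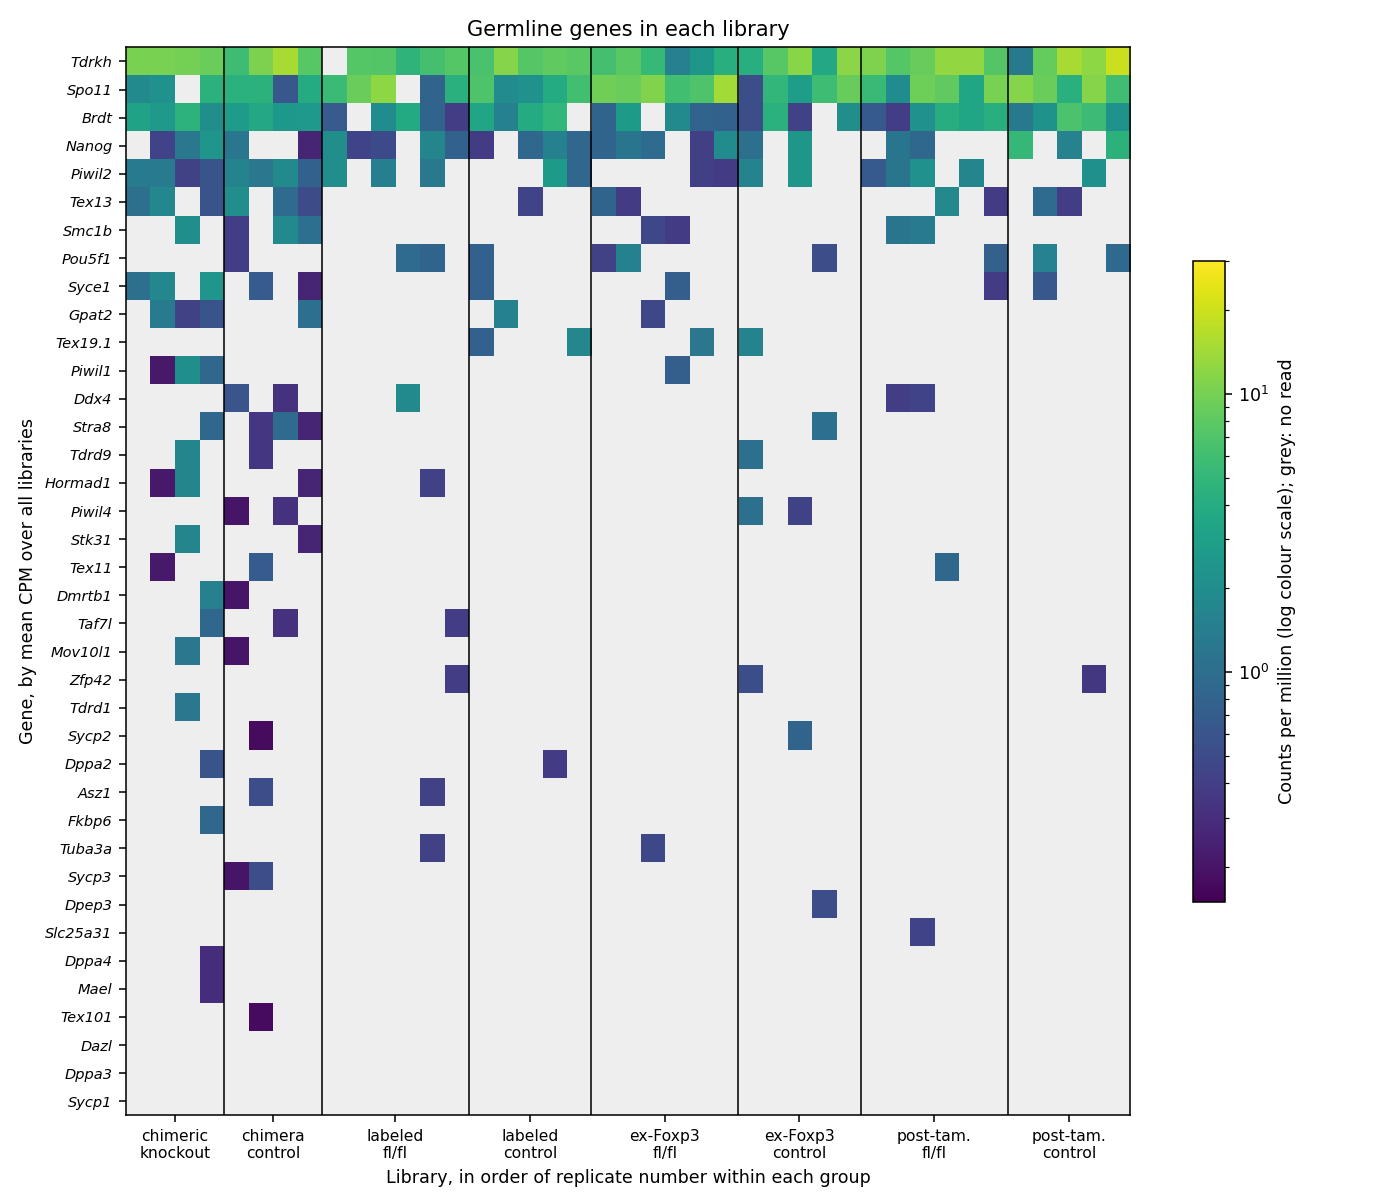
CPM (log colour scale, grey for no read) of the 38 genes, sorted by mean level, in 41 libraries, with the group to the left of each control being the knockout or fl/fl group. Tdrkh, Spo11 and Brdt are read in most libraries of every group, and below Gpat2 nearly all coloured cells are scattered singly, more densely in the 8 chimera libraries.

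Some values carry limits of annotation. Tdrkh overlaps Oaz3, a testis gene on the other strand, and Oaz3 itself had 2 reads in 1 of 41 libraries. Sycp3, a lateral element protein of the synaptonemal complex, overlaps Chpt1 and carries the identifier of Chpt1 in the table, so its 4 reads may belong to either gene. The identifier of Tdrd9 stands on 2 rows of the counts, and the effect on its reads was not tested. Tuba3a, Piwil4, Dpep3 and Pou5f1 overlap non-coding transcripts of the other strand, and the strand setting of the counting is not given in the sources used here.

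In the chimera, summed CPM of the 38 genes was 18.8, 22.2, 28.3 and 28.4 in chimeric knockouts, against 20.1, 23.5, 24.8 and 18.7 in chimera controls. The groups overlapped. The means were 24.4 ± 4.74 CPM in chimeric knockouts and 21.8 ± 2.86 CPM in chimera controls (SD, n = 4 each), a ratio of 1.12. Members with a read numbered 6, 11, 12 and 16 in chimeric knockouts, against 13, 12, 10 and 12 in chimera controls. Thinned to the depth of the shallowest chimera library, the means were 10.6 ± 3.86 in chimeric knockouts and 9.72 ± 0.443 in chimera controls (SD). Over each group 23 members had a read in some chimeric knockout and 24 in some chimera control.

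No member was called among the 30 with a read in a chimera library, in either direction, at an adjusted p of 0.05 in the edgeR quasi-likelihood test, where 2.55% of all 15530 genes were called. At an unadjusted p under 0.05 there was 1 of 30 members with edgeR (3.33%, against 11.6% of all genes). There was also 1 with DESeq2 (3.33%, against 8.3% of all genes), which called no member and 1.64% of all genes. Of 38 members, 6 were read in knockouts only, 7 in controls only, 17 in both and 8 in neither. The 9 members with at least 10 reads in the experiment had a median log2 fold change of 0.066 (6 positive), against -0.0008 over all genes with as many reads.

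Among piRNA pathway genes, Tdrkh did not pass the test. It had 10.3, 10.2, 9.99 and 8.97 CPM in chimeric knockouts, against 5.84, 10.5, 15.0 and 7.51 CPM in chimera controls. The knockouts lay inside the range of the controls, with a log2 fold change of 0.07 ± 0.32 (SE, adjusted p = 0.949). Piwil2, a PIWI protein of spermatogonia and meiotic cells, had 5, 6, 1 and 2 reads in chimeric knockouts, against 8, 7, 6 and 3 in chimera controls (log2 fold change -0.52 ± 1.16). Piwil1 had 0, 1, 5 and 3 reads in chimeric knockouts, against no read in any chimera control. Its pooled knockout level, with its 9 reads taken as exact, was 3.76 times the level that 3 reads over the pooled controls would give. Piwil1 missed the threshold (adjusted p = 0.283, edgeR). Among the other 33 libraries Piwil1 was read only in ex-Foxp3 fl/fl library 4, with 2 reads. Gpat2, a mitochondrial outer membrane protein needed for primary piRNA production, had 0, 6, 1 and 2 reads in chimeric knockouts, against 0, 0, 0 and 4 in chimera controls (log2 fold change 1.18 ± 1.68, adjusted p = 0.78). All Gpat2 reads of the controls lay in control 4, and the fold change ran from 0.38 to 4.32 with 1 library left out.

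Reads in controls alone were also found. Ddx4 had no read in chimeric knockouts, against 3, 0, 1 and 0 reads in chimera controls. Sycp3 likewise had no read in chimeric knockouts, against 1, 3, 0 and 0 in chimera controls, and Piwil4 had none, against 1, 0, 1 and 0. Pooled, Ddx4 and Sycp3 each had a control level 1.07 times the level that 3 reads over the pooled knockouts would give. That takes their 4 control reads as exact and sets no minimum difference. Neither was called (edgeR adjusted p = 0.545 for Ddx4 and 0.551 for Sycp3). Mael, an HMG-box protein of germ granules, had a single read in the whole series, in chimeric knockout 4.

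Of the meiotic genes, Syce1, a central element protein of the synaptonemal complex, had 4, 8, 0 and 8 reads in chimeric knockouts, against 0, 4, 0 and 1 in chimera controls. It had the largest log2 fold change of the members with at least 10 reads, 2.25 ± 1.58 (SE), and did not pass the test (adjusted p = 0.566). Spo11 had 1.85, 2.18, 0 and 4.48 CPM in chimeric knockouts, against 4.43, 4.55, 0.637 and 3.89 CPM in chimera controls (log2 fold change -0.63 ± 0.65, adjusted p = 0.697). Smc1b, a meiotic cohesin subunit, had 0, 0, 5 and 0 reads in chimeric knockouts, against 2, 0, 6 and 4 in chimera controls (log2 fold change -0.72 ± 1.65). It turned to 1.13 without chimera controls 3 and 4 and to 0.03 without control 3.

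The other 2 classes showed the same overlap. Brdt had 3.18, 2.61, 4.58 and 2.09 CPM in chimeric knockouts, against 2.82, 3.68, 2.55 and 2.59 CPM in chimera controls (log2 fold change 0.09 ± 0.65, adjusted p = 0.967). Tex13, an X-linked gene of spermatogonia that carries the identifier of Tex13b, had 4, 8, 0 and 2 reads in chimeric knockouts, against 10, 0, 3 and 2 in chimera controls. Nanog, a core factor of pluripotent cells, had 0, 2, 3 and 8 reads in chimeric knockouts, against 6, 0, 0 and 1 in chimera controls (log2 fold change 1.36 ± 1.61, adjusted p = 0.718). Pou5f1, its partner in pluripotency, had no read in chimeric knockouts, against 2 reads in chimera control 1 alone.

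**Figure D3:**
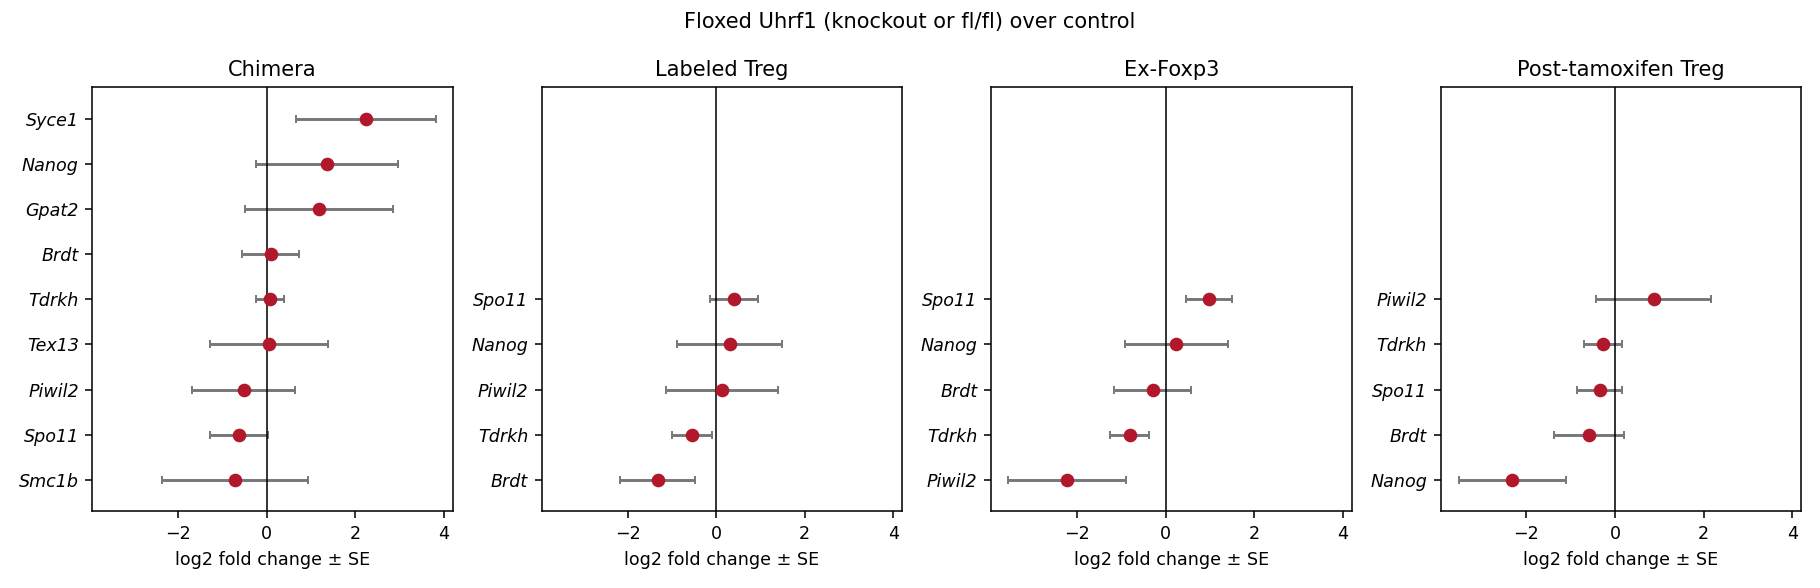
Log2 fold change ± SE (edgeR) of members with at least 10 reads in the 2 groups compared, knockout or fl/fl over control, in the 4 sorted populations. In the chimera 3 genes lie above 1 with SE of 1.58 to 1.68, and Tdrkh, the best-read gene, lies near 0.

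Most reads of the rarest members in chimeric knockouts lay in libraries 3 and 4. There were 21 members with 1 to 10 reads over the 8 chimera libraries. They had 0, 3, 23 and 21 reads in chimeric knockouts 1 to 4, against 9, 16, 6 and 3 in chimera controls. Knockout 3 held 5 reads of Piwil1, 4 each of Hormad1 (a meiotic chromosome axis protein), Stk31 (a Tudor domain kinase of germ cells) and Tdrd9 (a piRNA pathway helicase), and 3 each of Tdrd1 and Mov10l1, both also of the piRNA pathway. Knockout 4 held 5 reads of Dmrtb1 (a regulator of the switch from mitosis to meiosis), 3 each of Piwil1, Fkbp6, Stra8 (the meiosis gatekeeper) and Taf7l, 2 of Dppa2 and 1 each of Mael and Dppa4. Of these rare members, the libraries shared Piwil1 alone.

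The same libraries were also rich in reads of rare genes of any kind. Over all 4141 genes with 1 to 10 reads in the chimera, summed CPM was 321, 149, 1260 and 774 in chimeric knockouts, against 325, 298, 874 and 553 in chimera controls. The share of those genes with a read was 15.6%, 8.53%, 31.9% and 27.8% in chimeric knockouts, against 19.4%, 18.7%, 29.0% and 25.0% in chimera controls. The share of the 21 members with a read was 0%, 14.3%, 28.6% and 38.1% in chimeric knockouts, against 28.6%, 33.3%, 19.0% and 14.3% in chimera controls. Control 3 had more rare-gene CPM than knockout 4 and only 6 member reads. Of the members 9 of 21 (42.9%) were read in 1 library only, against 51.2% of the rare genes. The part of this library difference in the member reads was not tested, and knockout 4 is the library with Uhrf1 at the level of the controls.

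**Figure D4:**
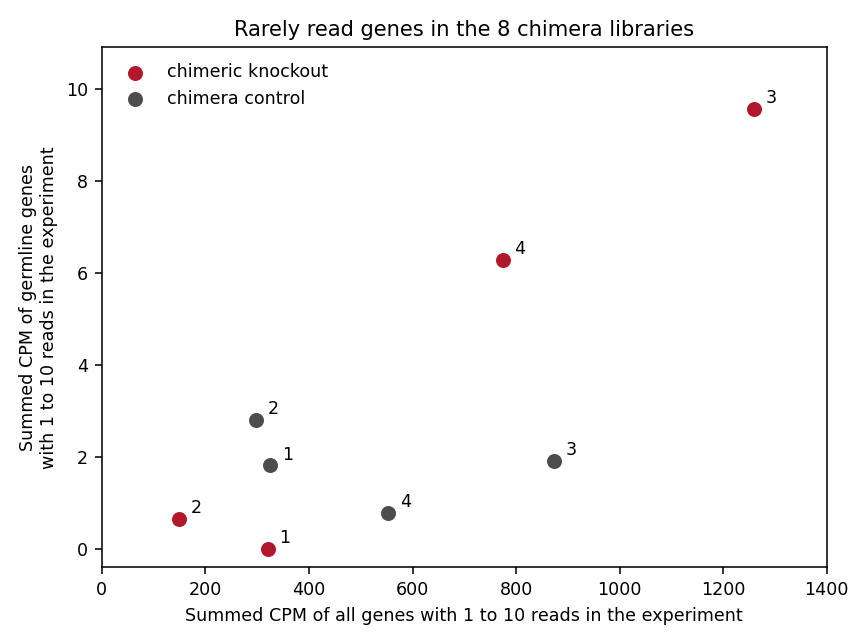
Summed CPM of the 4141 genes with 1 to 10 reads over the chimera libraries (horizontal axis) against summed CPM of the 21 members among them (vertical axis), 1 numbered point per library, red for chimeric knockouts and grey for controls. Knockouts 3 and 4 lie highest on the vertical axis at 9.57 and 6.28, knockouts 1 and 2 lie lowest at 0 and 0.653, and the controls lie between at 0.777 to 2.80.

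In labeled Treg cells, in which Cre had acted and Foxp3 was kept, summed CPM was 10.3, 17.1, 23.5, 11.4, 12.9 and 13.7 in fl/fl mice, against 19.6, 16.5, 14.9, 21.7 and 17.3 in controls. The groups overlapped, with means of 14.8 ± 4.84 in fl/fl mice and 18.0 ± 2.70 in controls (SD, n = 6 and n = 5), a ratio of 0.823. Members with a read numbered 3 to 9 in fl/fl libraries and 4 to 7 in controls. None of the 26 members with a read in the pulse-chase experiment was called, where 0.0066% of all 15161 genes were (1 gene). With the replicate number as a block, no member and 492 genes were called. There were 2 of 26 members at an unadjusted p under 0.05 with edgeR (7.69%, against 8.34% of all genes). With DESeq2 there were none, against 6.44% of all genes, and it called no member and 0.343% of all genes. Both edgeR members were lower in fl/fl cells, Gpat2 with no read against 4 reads in 1 control library, and Tex19.1, which acts against transposons in germ cells and placenta, with no read against 4 reads in 2 control libraries. With its 4 reads taken as exact, each had a pooled control level 1.40 times that of 3 reads over the pooled fl/fl libraries. Neither was called (edgeR adjusted p = 0.595 for Gpat2 and 0.591 for Tex19.1).

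Brdt had the largest change of the well-read members in labeled cells. It had 0.689, 0, 1.96, 3.80, 0.832 and 0.392 CPM in fl/fl mice, against 3.46, 1.53, 3.94, 5.05 and 0 CPM in controls. Both groups held a library at 0, and the log2 fold change was -1.32 ± 0.85 (SE, adjusted p = 0.666). Tdrkh ranged from 0 to 7.46 CPM in fl/fl mice and from 6.54 to 11.5 CPM in controls (log2 fold change -0.55 ± 0.45, adjusted p = 0.752). Spo11 ranged from 0 to 12.2 CPM in fl/fl mice and from 1.92 to 6.93 CPM in controls (log2 fold change 0.41 ± 0.54, adjusted p = 0.919).

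In ex-Foxp3 cells, summed CPM was 18.7, 22.5, 18.6, 11.3, 12.3 and 21.7 in fl/fl mice, against 12.3, 17.0, 21.3, 11.5 and 22.7 in controls. The means were 17.5 ± 4.71 in fl/fl mice and 16.9 ± 5.07 in controls (SD, ratio 1.03). No member was called, where 0.0792% of all genes were. A single member of 26, Piwil4, had an unadjusted p under 0.05 with edgeR (3.85%, against 8.17% of all genes). None did with DESeq2, against 6.44% of all genes, and DESeq2 called no member and 0.587% of all genes. Piwil4 had no read in fl/fl cells, against 2 and 1 reads in 2 of 5 controls (adjusted p = 0.595).

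Spo11 and Tdrkh lay in opposite directions in ex-Foxp3 cells. Spo11 had 9.57, 8.93, 11.0, 6.00, 6.99 and 14.3 CPM in fl/fl mice, against 0.534, 5.03, 2.92, 5.75 and 8.73 CPM in controls. Only control 5 reached into the range of the fl/fl libraries. The log2 fold change was 0.98 ± 0.51 (SE, adjusted p = 0.636, edgeR). Tdrkh had 15, 20, 11, 4, 6 and 11 reads in fl/fl mice, against 8, 12, 28, 7 and 41 reads in controls (log2 fold change -0.81 ± 0.45, adjusted p = 0.664). Without Tdrkh the summed CPM had means of 12.9 ± 2.94 in fl/fl mice and 9.13 ± 1.21 in controls (SD, ratio 1.42). Piwil2 had 2 reads over 6 fl/fl libraries, against 9 reads in 2 of 5 controls (log2 fold change -2.23 ± 1.34, adjusted p = 0.67).

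In post-tamoxifen Treg cells, whose reporter had not recombined, summed CPM was 17.5, 13.7, 25.5, 27.6, 21.3 and 23.5 in fl/fl mice, against 19.195, 22.8, 28.1, 31.8 and 33.1 in controls. The means were 21.5 ± 5.17 in fl/fl mice and 27.0 ± 5.93 in controls (SD, ratio 0.797). No member was called, where 3.58% of all genes were. At an unadjusted p under 0.05 there was 1 of 26 members with edgeR (3.85%, against 18.5% of all genes). There was none with DESeq2, against 16.4% of all genes, and DESeq2 called no member and 6.46% of all genes. The member was Smc1b, with 3 reads in each of fl/fl libraries 2 and 3 and none in the other fl/fl libraries, against no read in controls. With its 6 reads taken as exact, its pooled fl/fl level was 1.87 times that of 3 reads over the pooled controls. Its adjusted p was 0.208 (edgeR), the lowest of any member in any comparison. Fl/fl libraries 2 and 3 had the highest share of rare genes with a read among post-tamoxifen libraries (12.9% and 11.7%). The others had 2.71% to 9.06%. B cell and plasma cell markers were 368 and 608 CPM in fl/fl libraries 2 and 3. They were 1044 CPM in fl/fl library 1 and 72.3 to 86.5 CPM in fl/fl libraries 4 to 6. Foxp3 in fl/fl library 3 was 129 CPM, inside the range of the ex-Foxp3 libraries. The part of these differences in the Smc1b reads was not tested.

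Nanog had 0, 1.18, 0.880, 0, 0 and 0 CPM in post-tamoxifen cells of fl/fl mice, against 5.12, 0, 1.58, 0 and 4.54 CPM in controls. Both groups held libraries without a read, and the log2 fold change was -2.32 ± 1.21 (SE, adjusted p = 0.295). Tdrkh ranged from 7.31 to 12.8 CPM in fl/fl mice and from 1.28 to 19.5 CPM in controls (log2 fold change -0.27 ± 0.42, adjusted p = 0.822). Brdt ranged from 0.393 to 4.23 CPM in fl/fl mice and from 1.28 to 6.73 CPM in controls (log2 fold change -0.58 ± 0.79, adjusted p = 0.765). Piwil2 had 11 reads in 4 of 6 fl/fl libraries, against 6 reads in 1 of 5 controls (log2 fold change 0.87 ± 1.30, adjusted p = 0.801). That value ran from 0.42 to 4.12 with 1 library left out.

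**Figure D5:**
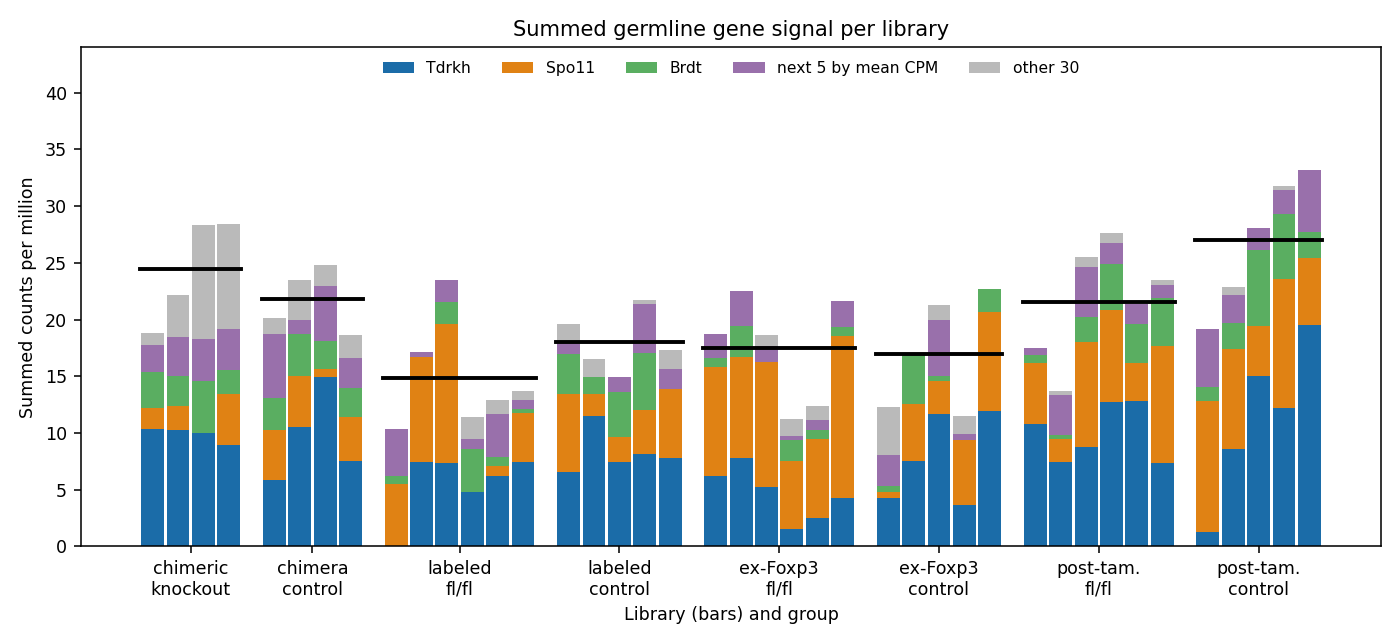
Summed CPM of the 38 genes in each library, stacked by Tdrkh, Spo11, Brdt, the next 5 genes by mean level and the other 30, with the group mean as a black line. The bars of each knockout or fl/fl group overlap those of its control, and the other 30 genes (grey) are widest in chimeric knockouts 3 and 4.

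Grouped by role, the 14 genes of the piRNA pathway and germ granules summed to 13.9 ± 3.25 CPM in chimeric knockouts and 12.0 ± 4.04 CPM in chimera controls (SD, n = 4 each). The 10 meiotic genes summed to 5.07 ± 2.86 CPM in chimeric knockouts and 5.36 ± 1.45 CPM in chimera controls. The 8 genes of spermatids and testis summed to 4.19 ± 0.425 CPM in chimeric knockouts and 3.90 ± 0.709 CPM in chimera controls, and the 6 pluripotency and early germ cell genes to 1.24 ± 1.46 CPM in chimeric knockouts and 0.468 ± 0.772 CPM in chimera controls. Each of these 4 differences in the chimera was smaller than the larger SD of its groups. In ex-Foxp3 cells the meiotic genes, which there were mostly Spo11, summed to 9.73 ± 2.79 CPM in fl/fl mice and 4.97 ± 3.11 CPM in controls, and the piRNA genes to 5.12 ± 1.90 CPM in fl/fl mice and 9.47 ± 4.17 CPM in controls. The piRNA genes of labeled cells, mostly Tdrkh, summed to 6.72 ± 2.39 CPM in fl/fl mice and 9.81 ± 2.43 CPM in controls. The pluripotency genes of post-tamoxifen cells, mostly Nanog, summed to 0.471 ± 0.533 CPM in fl/fl mice and 2.82 ± 2.31 CPM in controls. These 4 differences were larger than the SD of either group, and in the other pulse-chase sums by role the difference was smaller than the larger SD. Sums over chosen genes got no test.

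No member was called between cells that had lost and kept Foxp3, with or without the replicate block. In ex-Foxp3 against labeled cells of fl/fl mice no member was called, where 2.1% of all genes were. Without the block none had an unadjusted p under 0.05, against 14.4% of all genes with edgeR and 12.4% with DESeq2. DESeq2 called no member and 3.77% of all genes. Spo11 had 139 reads in 6 ex-Foxp3 libraries and 67 in 6 labeled libraries (log2 fold change 0.79 ± 0.48, adjusted p = 0.46). With the replicate number as a block, 1205 of 13529 genes and none of 18 members were called. In that edgeR fit 1 of 18 members had an unadjusted p under 0.05 (5.56%, against 18.0% of all genes). In controls no member was called either, where 0.152% of all genes were (638 of 13211 genes and none of 17 members with the block). With edgeR no member had an unadjusted p under 0.05, against 8.24% of all genes (13.6% with the block). With DESeq2 none did, against 6.85% of all genes, and it called 0.528% of all genes. Spo11 there had 57 reads in 5 ex-Foxp3 libraries and 45 in 5 labeled libraries (log2 fold change 0.21 ± 0.56). The difference between the genotype effects of ex-Foxp3 and labeled cells was called for no member and for 0% of all genes. With edgeR 2 of 26 members (7.69%) had an unadjusted p under 0.05, against 3.59% of all genes. With DESeq2 none did, against 1.79% of all genes. The difference between the effects of labeled and post-tamoxifen cells was called for no member and for 0.0132% of all genes. No member had an unadjusted p under 0.05, against 7.13% of all genes with edgeR and 5.51% with DESeq2.

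Members were read more often in the chimera than in the pulse-chase experiment. A read was present in 29.6% of the pairs of a member and a library in chimeric knockouts and 30.9% in chimera controls, and in 13.2% to 15.4% of pairs in the 6 pulse-chase groups. Of all genes, on average 59.7% had a read per library in chimeric knockouts and 61.1% in chimera controls, and 54.7% to 56.3% in the pulse-chase groups. The 2 experiments differ in mice, sorting and depth, which cannot be told apart here, and no test was made between them. In these bulk libraries a few cells expressing a gene and a low level in all cells cannot be told apart either.

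Other germline genes that are often silenced in the same way gave 1 call. Of 60 such genes listed, 39 could be fitted in the chimera, and Xlr3b alone was called, where 396 of all 15530 genes (2.55%) were. A single call among 39 genes lies near that share. Xlr3b, an X-linked gene of a family with near-identical copies, had 1.59, 0.871, 1.25 and 3.29 CPM in chimeric knockouts, against 2.01, 17.2, 5.73 and 3.37 CPM in chimera controls. It was lower in knockouts (log2 fold change -2.03 ± 0.51, SE, adjusted p = 0.00583, edgeR). The call was lost with the default expression filter (adjusted p = 0.0936), with a minimum of 10 reads (adjusted p = 0.0752), with DESeq2 (adjusted p = 0.112), with the replicate number as a block (adjusted p = 0.13), without knockout 2 (adjusted p = 0.0627) and without control 2 (log2 fold change -1.03, adjusted p = 0.648). In the 3 pulse-chase genotype comparisons 0.0066% (labeled), 0.0792% (ex-Foxp3) and 3.58% (post-tamoxifen) of all genes were called. None of the listed germline genes was called in any of them, with 38 fitted. The most abundant were Xlr4b (25.0 CPM over 41 libraries) and Xlr4a (15.5 CPM), Tdrd7 (12.3 CPM) and Tex15 (4.71 CPM) of the piRNA pathway, and the meiotic cohesin subunit Rec8 (10.7 CPM) with the mismatch repair homologue Msh5 (1.96 CPM).

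A further list held 21 genes that place, copy, read or remove DNA methylation or take part in germline gene silencing by other means. All but Dnmt3l, a cofactor of the de novo methyltransferases without a read in the chimera, could be fitted there. The list summed to 3420 to 3626 CPM in chimeric knockouts and 3414 to 3567 CPM in chimera controls. In the chimera 3 of 20 were called lower and none higher in knockouts, where 255 of all 15530 genes were lower and 141 higher. They were Uhrf1, Ehmt2 (a histone H3K9 methyltransferase also called G9a, log2 fold change -0.35 ± 0.10, adjusted p = 0.017) and Tet2 (an enzyme that oxidises methylcytosine, -0.30 ± 0.09, adjusted p = 0.0324). The call of Ehmt2 was lost without control 1 or 2 or knockout 2 (adjusted p up to 0.161). The call of Tet2 was lost without controls 3 and 4 together (adjusted p = 0.235) and without control 2, 3 or 4 or knockout 1, 2 or 3 singly (at most 0.187). In labeled and ex-Foxp3 cells none was called. In post-tamoxifen cells 3 of 21 were lower and none higher in fl/fl mice, where 244 of all 15161 genes were lower and 299 higher. Tet3, of the same family as Tet2, had a log2 fold change of -0.65 ± 0.11 (adjusted p = 0.000352), Ehmt1, the partner of Ehmt2, -0.48 ± 0.12 (adjusted p = 0.00851), and Atf7ip, a cofactor of the methyltransferase SETDB1, -0.32 ± 0.09 (adjusted p = 0.0324). Tet3 passed in 18 of 18 alternatives. The call of Ehmt1 was lost without control 3 (adjusted p = 0.053), without controls 2 and 3 and with the 2 groups fitted alone (adjusted p up to 0.082). Atf7ip passed in 9 of 18 alternatives, and its call was lost without control 1, 3 or 4 or without fl/fl 1, 2, 3 or 5, with a highest adjusted p of 0.144 over all alternatives. Summed B cell and plasma cell markers of that population varied between libraries as given above, and summed myeloid markers (7 genes) ran from 73.1 to 578 CPM in fl/fl and from 35.8 to 402 CPM in control libraries. Their part in these calls was not tested. Dnmt1 averaged 265 ± 14.2 CPM in chimeric knockouts and 264 ± 23.8 CPM in chimera controls (SD) and was not called.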

How the data were processed

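Sorted cells gave RNA on AllPrep columns, made into stranded total RNA libraries with a SMARTer kit, per the labels' protocols. Per the submitters' processing notes, bcl2fastq 2.17.1.14 split the reads by library and TopHat2 2.1.0 placed them on mm10. The raw counts per gene of 41 libraries were deposited by the authors, and the counting and strand settings are not given in the sources used here.

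Library totals ran from 781437 to 5709702 reads. Every pair of libraries within a group differed beyond sampling noise (chi-square over degrees of freedom at least 2.57). CPM were computed from total counts. Tests used edgeR 4.0.16 (R 4.3.3) on every gene with at least 1 read in the fitted libraries, with TMM factors, robust quasi-likelihood fits and Benjamini-Hochberg adjustment over all genes at 0.05. The chimera fit held 8 libraries and the pulse-chase fit 33 in 6 groups. Sums and detection counts over members got no test. A count of 0 was set to 3 reads, which covers counting error of the 0 only. The count set against it was taken as exact, so these ratios set no minimum difference. Gene models came from GENCODE on GRCm38 and matched 36 of 38 identifiers by symbol. The test was checked on simulated counts in which only better-read genes were changed, so the check does not cover the rarely read members. Alternatives were other scaling, count filters, DESeq2 1.42.0, a replicate block, the compared groups alone, and libraries left out.

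The members, lists and tests were chosen with earlier results of these data known. Named with values are the 8 most abundant members, the 3 largest fold changes per genotype comparison among members with 10 reads, members read in 2 or more of 4, or 3 or more of 5 or 6, libraries of 1 genotype and none of the other, and of the other lists the called genes and the 2 most abundant. Members named beside these, those with an unadjusted p under 0.05, the rare genes and Dnmt1 were picked with their values in view. Replicate numbers were taken to pair libraries where every same-numbered pair deviated together at over 0.1 (correlations of 0.114 to 0.344 between labeled genotypes, 0.159 to 0.374 and 0.144 to 0.295 between ex-Foxp3 and labeled cells of fl/fl and control mice). Elsewhere libraries share only a number. The titles number the 3 populations of a genotype alike without naming a mouse, and the Y-linked reads fall in control numbers 2 and 3 of all 3. Plots used matplotlib 3.10.9 (Python 3.11.15).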

Additional observations from a re-analysis of the deposited data

Results flagged for a closer look

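In 3 of 40 checks of a value within a group, 1 library lay apart from the others by more than its group's spread allows at the 95% level, where chance gives about 1 in 20. Tdrkh had 0 CPM in labeled fl/fl library 1, against 4.75 to 7.46 CPM in the other 5 libraries of that group. Spo11 had 0.637 CPM in chimera control 3, against 3.89 to 4.55 CPM in the other 3 controls. The number of members with a read was 5 in ex-Foxp3 fl/fl library 6 and 6 in each of the other 5. As those 5 were tied, a difference of 1 gene was bound to be flagged. The 1 in 20 does not hold for such tied counts, and no conclusion is drawn from this flag. The difference between genotype effects of 2 sorted populations was called for 0 members.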

How the results depend on the processing

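No member was called in any of 168 pairs of a comparison and a setting, whatever the scaling, filter, tool or library left out. The pairs covered 8 comparisons, and many shared a fit or most of their libraries, so they are not independent checks. With the default expression filter Tdrkh, Spo11 and Brdt were the members that remained in the test. The ratios of summed CPM ran over 1.06 to 1.21 (chimera), 0.727 to 0.954 (labeled), 0.957 to 1.42 (ex-Foxp3) and 0.736 to 0.855 (post-tamoxifen). Of 384 alternative fold changes for 24 member values, 355 kept their direction and 29 reversed, none with a change of call, and the cause was not tested. Leaving out 1 library gave ranges of -0.13 to 0.24 (Brdt, chimera), -0.71 to 0.49 (Brdt, ex-Foxp3), -0.12 to 1.60 (Nanog, ex-Foxp3), -0.031 to 0.80 (Nanog, labeled), -0.31 to 2.08 (Piwil2, labeled), -4.79 to 0.032 (Smc1b, chimera), -0.12 to 0.32 (Tdrkh, chimera) and -0.55 to 0.90 (Tex13, chimera). Without chimera controls 3 and 4 the values were -0.082 for Brdt, 1.13 for Smc1b and -0.14 for Tex13. Without pulse-chase control numbers 2 and 3 they were 0.31 for Brdt in ex-Foxp3 cells and, in labeled cells, -0.027 for Nanog, -0.59 for Piwil2 and -0.0099 for Spo11.

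With the replicate number as a block, Nanog in labeled cells turned to -0.26, 0 members were called in every comparison, and the number of all genes called went to 365 (chimera), 492 (labeled), 502 (ex-Foxp3), 1698 (post-tamoxifen), 1205 and 638 (ex-Foxp3 against labeled cells of fl/fl and control mice), and 17 and 202 (differences between effects), against 396, 1, 12, 543, 318, 23, 0 and 2 without it. Pairs deviated together in the chimera at -0.089 to 0.024 and in ex-Foxp3 and post-tamoxifen genotypes at 0.018 to 0.187 and -0.075 to 0.269. Over the other alternatives, the chimera count was 231 with the default filter, 254 with DESeq2 and 184 to 500 with 1 library left out, and the post-tamoxifen count was 153 with its groups fitted alone, 979 with DESeq2 and 272 to 887 with 1 library left out. DESeq2 gave 52 in labeled and 89 in ex-Foxp3 cells, and the compared groups alone 64 and 177.

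Depth limits every statement on the rare members. A count of 0 allows up to 0.170 to 0.268 CPM over the pooled libraries of a group, and standard errors of members with at least 10 reads were 0.318 to 1.68 on the log2 scale.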

Other observations

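Of 30 X-linked and testis-restricted germline genes, 15 had a read in some post-tamoxifen library of fl/fl mice (n = 6) and 7 in some control library (n = 5). The counts per library were 6, 11, 7, 5, 6 and 9 in fl/fl mice, against 5, 7, 6, 6 and 4 in controls. Libraries 2 and 3 of the fl/fl mice had the highest share of rare genes with a read in this population, and libraries 1 to 3 the highest B cell and plasma cell markers of the group. Without libraries 2 and 3 the fl/fl count was 10, and without libraries 1 to 3 it was 9, in fewer libraries, both chosen after the data were seen. The part of these libraries in the difference was not tested. Over the 19434 genes of the table, 66.4% had a read in some post-tamoxifen fl/fl library and 64.6% in some control library. In the chimera 15 of the 30 genes had a read in some knockout and 15 in some control. The summed level of these genes was 48.8 CPM in fl/fl and 47.2 CPM in control post-tamoxifen cells, most of it from Xlr4a and Xlr4b, so the additional genes held few reads. Rec8 averaged 4.74 ± 2.82 CPM in ex-Foxp3 cells and 10.6 ± 4.97 CPM in labeled cells of fl/fl mice, and 6.51 ± 2.40 CPM in ex-Foxp3 cells and 8.51 ± 4.51 CPM in labeled cells of controls (SD, n = 6 and n = 5 per population). Neither difference passed the test (log2 fold change -1.12 ± 0.55, SE, adjusted p = 0.346 in fl/fl mice and -0.31 ± 0.59, adjusted p = 1 in controls, edgeR).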
